A study of Caenorhabditis elegans with 12 samples.

Results

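The sperm protein genes of *C. elegans* were followed across 12 RNA libraries of whole L4 animals. They were taken by symbol, as every gene whose WormBase name starts with *msp-*, *msd-*, *ssp-*, *ssq-* or *nspd-* and whose counts summed to at least 10 over the 12 libraries. Of the 46920 loci in the count table, 59 met this rule, namely 30 *msp*, 4 *msd*, 12 *ssp*, 4 *ssq* and 9 *nspd* genes. A further 2 annotated genes of these families did not, since *msp-58* had 1.05 counts in all and *nspd-8* had 0 counts in all 12 libraries, which allows at most 3 counts in any of them. Among the 59 genes, 56 passed the filter on low counts and were tested, and *msp-32*, *msp-74* and *ssp-37*, with 48.8, 39.0 and 72.0 counts in all, did not.

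In a hermaphrodite worm the germ cells that differentiate first, during the L4 stage, become sperm, and the later ones become oocytes. Sperm genes are transcribed in spermatocytes, because transcription ceases before the meiotic divisions, so the RNA of the sperm proteins is laid down in advance. The major sperm protein (MSP) made by the *msp* genes is the main cytoskeletal protein of the crawling, amoeboid sperm of nematodes, and MSP released from sperm also signals to oocytes to mature and be ovulated. The *msd* genes code for small proteins with an MSP domain, *ssp* and *ssq* stand for sperm-specific family classes P and Q, and *nspd* stands for group D of the nematode-specific peptides.

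The wild-type strain N2 (WT) and *lin-40*(*yth27*), a point mutant of LIN-40, the scaffold subunit of the chromatin-remodelling NuRD complex, were each grown from hatch at 20°C. Their food was bacteria carrying the empty vector (EV) or bacteria for *cco-1* RNAi, which targets a protein of mitochondrial complex IV. The study's RNA-seq methods write the second food as EV+*cco-1*, and it is called *cco-1* RNAi here. All 4 groups had 3 libraries, and whole animals of every tissue were lysed together, so fewer sperm-forming cells and less sperm RNA per cell cannot be told apart. The study calls its replicates biological, without saying how the libraries of a group were grown apart. The p-values measure the spread between these samples, which the main fit pools over all 4 groups. The *yth27* allele changes a codon, and the level of *lin-40* RNA is thus no check of the genotype labels.

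The library totals lay between 18553441 and 22538088 counts. Levels are given as CPM, counts scaled to the library total, after trimmed-mean (TMM) scaling, or as CPM per kilobase of exon where genes are compared with each other. The target of the RNAi, listed as *cox-5B*, was at 474 to 517 CPM in WT on EV and 143 to 193 CPM in WT on *cco-1* RNAi, and at 409 to 425 CPM and 177 to 257 CPM in *lin-40*(*yth27*), so the groups did not overlap in either genotype. Its fitted log2 change was −1.63 ± 0.16 (SE) in WT and −0.92 ± 0.16 in *lin-40*(*yth27*) (edgeR adjusted p = 0.000376 and 0.0187).

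The 59 genes were grouped on few chromosomes. In the WBcel235 assembly, 34 of them (57.6%) lay on chromosome IV, against 17.05% of all genes with at least 10 counts, and 15 lay on chromosome II. Chromosome I held 6, chromosomes III and V held 2 each, and the X chromosome held 0 of the 59 against 14.03% of all genes. With gaps of up to 250000 bases allowed, 18 of them fell in chrIV:9689015-10269187, 14 in chrIV:4994371-5316906 and 12 in chrII:4785898-5200180. In 50 of the 59, another gene of the 5 families lay within 50000 bases. These positions come from the Ensembl annotation of WBcel235, matched by gene ID, and the build behind the counts is not given in the sources used here.

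They were also short, and some were close copies of each other. The annotated exon length was 384 bases for the median *msp* gene, 330 for *msd*, 330 for *ssp*, 1190 for *ssq* and 216 for *nspd*, and in 54 of 59 genes it was a multiple of 3, so these are coding lengths. All 30 *msp* and all 4 *msd* genes had a single annotated exon. Of the *msp* values, 90.0% were not whole numbers, against 32.6% of the *ssp* values, and a value that is not whole holds at least 1 read divided between matching genes by the counting. The level of a single *msp* gene is therefore uncertain, and the sum of the family is the firmer value.

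The summed level of the 59 genes differed more between libraries of WT than between the 4 groups. In WT on EV it was 613, 3220.0 and 1970.1 CPM in replicates 1, 2 and 3, and in WT on *cco-1* RNAi it was 606, 5455 and 2940.1 CPM. In the mutant it was 2004, 3024 and 3002 CPM on EV, and 2747, 2015 and 2849.9 CPM on *cco-1* RNAi. Replicate 1 of both WT groups was thus the lowest of all 12 libraries and replicate 2 of WT on *cco-1* RNAi the highest, while all 6 *lin-40*(*yth27*) libraries lay between 2004 and 3024 CPM.

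As group means the summed level was, from lowest to highest, 1934 ± 1304 CPM (SD, n = 3) in WT on EV, 2537 ± 455 in the mutant on *cco-1* RNAi, 2677 ± 583 in the mutant on EV, and 3001 ± 2425 in WT on *cco-1* RNAi. Each pair of neighbours in that order overlapped. The range within a group was 5.26-fold in WT on EV and 8.997-fold in WT on *cco-1* RNAi, and 1.51-fold and 1.41-fold in *lin-40*(*yth27*). The 59 genes took 0.0542% of all counts in WT EV replicate 1 and 0.601% in WT *cco-1* replicate 2, the extremes of the 12 libraries.

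**Figure D1:**
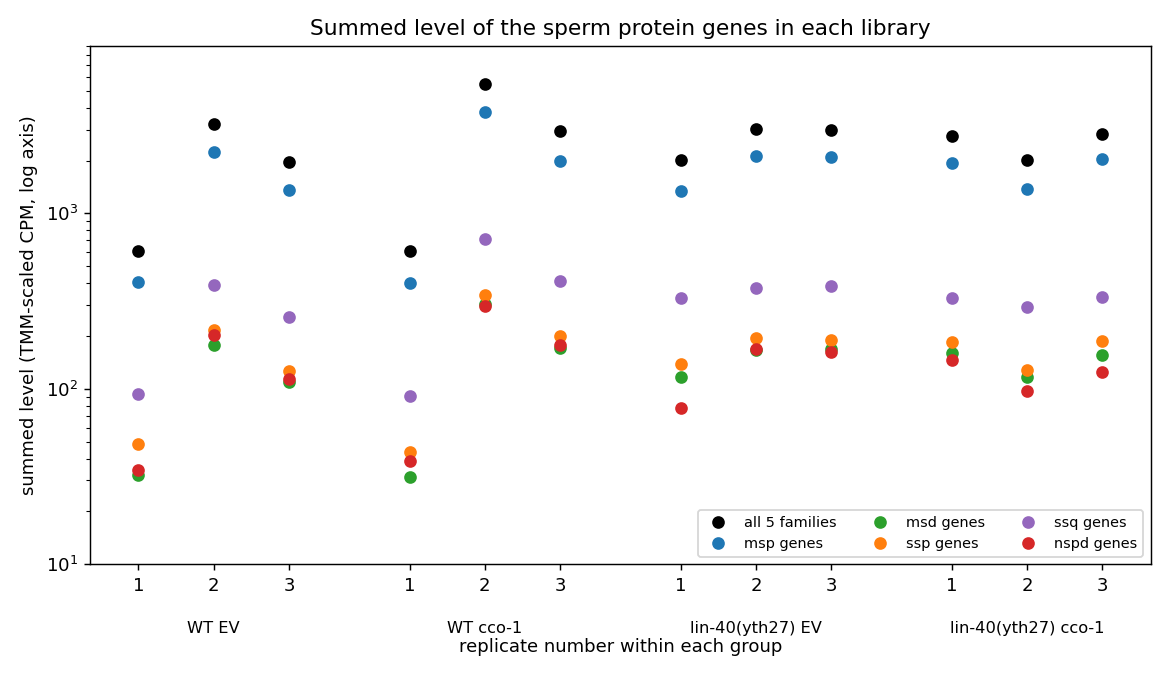
Summed level of the 5 families in each library, in TMM-scaled CPM on a log axis; each point is 1 library, grouped by genotype and bacteria along the horizontal axis. Replicate 1 of both WT groups lies lowest (613 and 606 CPM for all 5 families) and replicate 2 of WT on *cco-1* RNAi highest (5455 CPM), and the families keep nearly the same distances from each other.

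The families moved together, so that their shares of the summed CPM stayed in a narrow range while the sum itself varied 8.997-fold. The *msp* genes held 66.1 to 71.9% of it, the *ssq* genes 11.7 to 16.3%, the *ssp* genes 6.27 to 7.91%, the *msd* genes 5.16 to 5.81% and the *nspd* genes 3.85 to 6.36% over the 12 libraries. These are shares of reads and are not corrected for length. In replicate 1 of *lin-40*(*yth27*) on EV the *nspd* share was the lowest (3.85%) and the *ssq* share the highest (16.3%), and in replicate 1 of WT on EV the *msp* share was the lowest (66.1%) and the *ssp* share the highest (7.91%).

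Among the *msp* genes, the 3 with the highest mean level were *msp-152* (chrII:4933027-4933410), *msp-81* (chrIV:9836034-9836417) and *msp-59* (chrIV:5312728-5313111), at 329, 323 and 294 CPM per kilobase. All of them code for MSP. *msp-152* was at 32.5, 155 and 98.0 CPM in WT on EV and 27.2, 254 and 142 CPM in WT on *cco-1* RNAi. In the mutant it was at 111, 150.4 and 150.05 CPM on EV and 133, 104 and 161 CPM on *cco-1* RNAi. Both WT replicates numbered 1 were far below every other library, and the groups overlapped.

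*msp-81* followed the same order, with 30.8, 164 and 96.6 CPM in WT on EV and 31.3, 245 and 148 CPM in WT on *cco-1* RNAi. It was at 93.4 to 147 CPM in *lin-40*(*yth27*) on EV and 100.5 to 149.5 CPM on *cco-1* RNAi. The least abundant tested *msp* gene, *msp-63*, had the same pattern at a lower level, with 5.23, 21.4 and 16.3 CPM in WT on EV and 3.31, 43.7 and 21.7 CPM in WT on *cco-1* RNAi. Over the 28 tested *msp* genes, the mean level ran from 51.1 to 329 CPM per kilobase, and the untested *msp-32* and *msp-74* were at 0.541 and 0.643 CPM per kilobase, with the highest library at 0.449 and 0.370 CPM.

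The *msd* genes, all of 330 bases, ranked as *msd-4* (155 CPM per kilobase), *msd-2* (137), *msd-1* (WBGene00009680; 123) and its namesake *msd-1* (WBGene00009684; 14.5). *msd-4*, the one of them on chromosome III, was at 12.9, 63.4 and 39.4 CPM in WT on EV and 12.8, 107 and 63.6 CPM in WT on *cco-1* RNAi. In the mutant it stood at 42.2 to 56.4 CPM on EV and 40.9 to 63.0 CPM on *cco-1* RNAi. WT again spanned the whole range of the mutant libraries and exceeded it on both sides.

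The *ssp* genes ran from 0.617 CPM per kilobase for the untested *ssp-37* to 150 for *ssp-9* (WBGene00006038). That gene was at 9.73, 56.0 and 41.7 CPM in WT on EV and 9.47, 91.7 and 62.4 CPM in WT on *cco-1* RNAi, and its namesake *ssp-9* (WBGene00006040) at 9.96, 46.3 and 19.5 CPM and at 8.13, 82.5 and 36.8 CPM. *ssp-10*, the third by level, was at 10.4, 37.04 and 19.7 CPM and at 8.23, 59.5 and 33.7 CPM in the same groups. The 2 *ssp-9* copies differed in *lin-40*(*yth27*) EV replicate 1, at 57.5 and 13.1 CPM, and reads that match both could not be told apart.

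A pair of faint *ssp* genes broke the common order. *ssp-36* was at 0.506, 1.25 and 0.257 CPM in WT on EV, had 0 counts in WT *cco-1* replicate 1 (which allows up to 0.155 CPM), and was highest in *lin-40*(*yth27*) *cco-1* replicate 1, at 1.76 CPM. *ssp-32* was lowest in *lin-40*(*yth27*) EV replicate 1, at 0.211 CPM, and not in a WT library. Both rested on few reads, with at most 40 counts of *ssp-36* in a library.

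The *ssq* genes were longer and lay between 30.5 (*ssq-3*) and 91.6 (*ssq-4*) CPM per kilobase. *ssq-4* was at 30.7, 125 and 76.9 CPM in WT on EV and 33.4, 245 and 141 CPM in WT on *cco-1* RNAi, and *ssq-2* at 30.3, 139 and 97.0 CPM and at 27.2, 242 and 141 CPM. In the mutant *ssq-4* held between 109 and 119 CPM on EV and between 105 and 108 CPM on *cco-1* RNAi. *ssq-1* stood at 18.7, 89.1 and 54.3 CPM in WT on EV and 16.8, 157 and 86.6 CPM in WT on *cco-1* RNAi. As a family the *ssq* genes varied 1.18-fold and 1.14-fold within the *lin-40*(*yth27*) groups.

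The *nspd* genes, the shortest of the 59, reached 127 CPM per kilobase in *nspd-1*, 119 in *nspd-2* and 88.4 in *nspd-7*. *nspd-1* was at 7.14, 40.05 and 23.3 CPM in WT on EV and 9.37, 61.1 and 38.9 CPM in WT on *cco-1* RNAi. In the mutant it was at 14.8, 30.7 and 27.3 CPM on EV and 28.2, 19.7 and 25.3 CPM on *cco-1* RNAi. The family varied 2.20-fold within *lin-40*(*yth27*) on EV, where replicate 1 was low for all 3 of these genes, and *nspd-9*, the faintest, was at 0.225 CPM in WT EV replicate 1 and 6.51 CPM in WT *cco-1* replicate 2.

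Gene by gene, the same libraries were at the extremes. The lowest of the 12 libraries was WT EV replicate 1 for 28 of the 56 tested genes and WT *cco-1* replicate 1 for 27, and the exception was *ssp-32*. The highest was WT *cco-1* replicate 2 for 55 of 56, the exception being *ssp-36*. Replicate 2 exceeded replicate 1 by a median of 5.37-fold in WT on EV (2.47-fold to 15.4-fold over 56 genes) and 9.22-fold in WT on *cco-1* RNAi (2.97-fold to 48.5-fold over the 55 genes with a count in replicate 1).

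**Figure D2:**
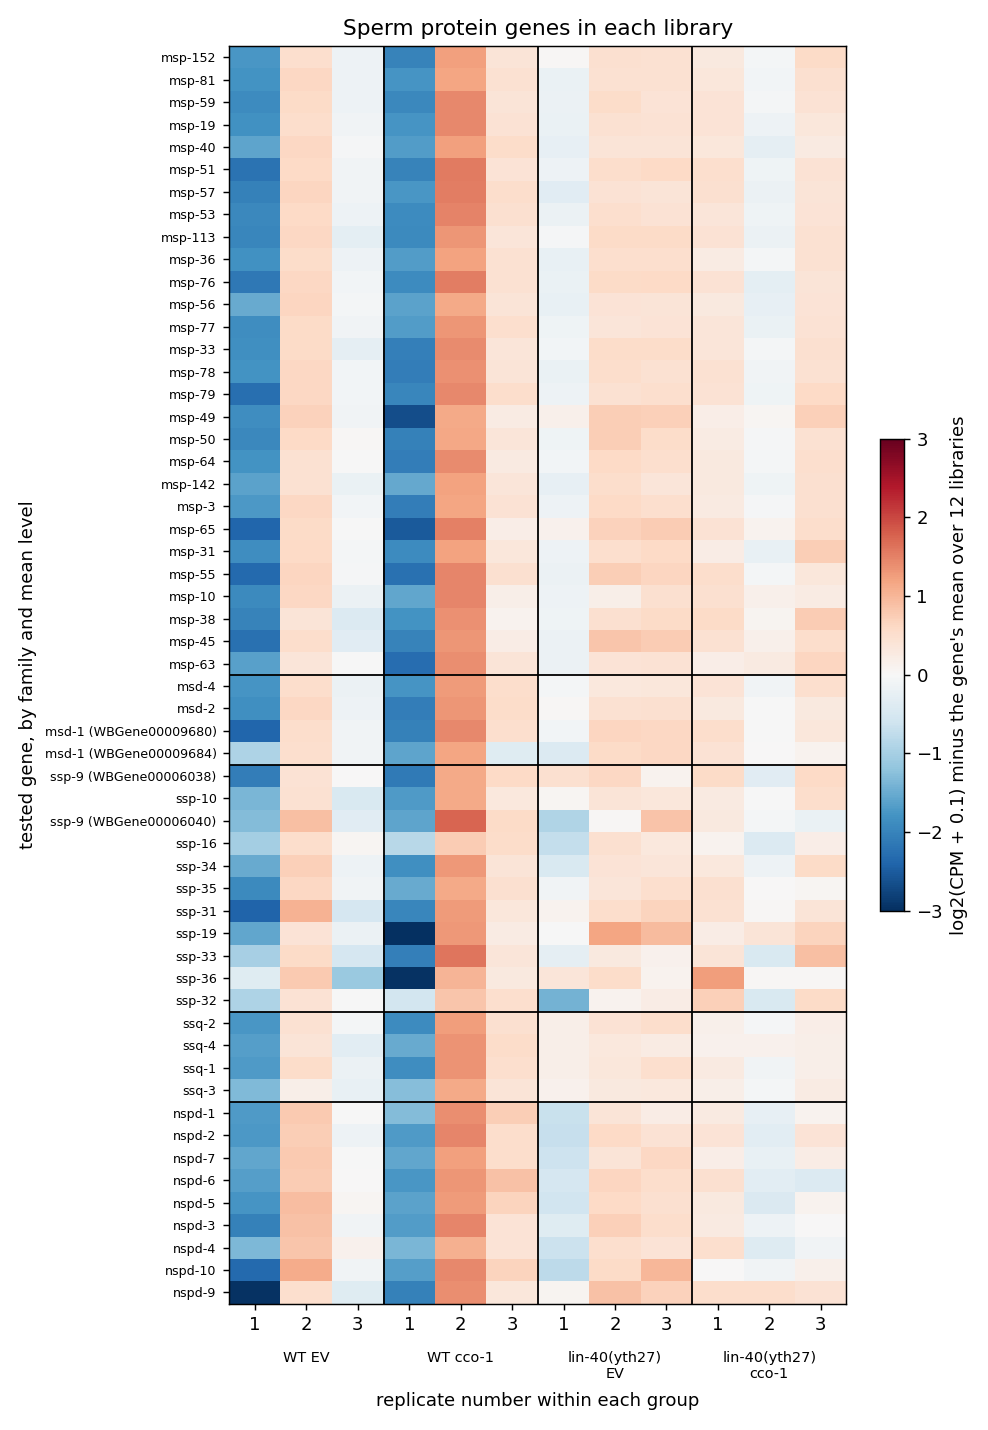
Level of the 56 tested sperm protein genes in each library, as log2(CPM + 0.1) minus the gene's mean over the 12 libraries; rows are genes by family and level, columns are libraries by group. The 2 WT columns numbered 1 are low in nearly every row, the WT *cco-1* column numbered 2 is the highest in 55 of 56 rows, and the *lin-40*(*yth27*) columns stay near the mean.

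In WT the spread between replicates of these genes was far above that of other genes. The SD of log2 CPM had a median of 1.23 in WT on EV and 1.66 in WT on *cco-1* RNAi over the 56 genes, against 0.26 and 0.28 over all 14867 tested genes. In *lin-40*(*yth27*) the medians were 0.38 on EV and 0.30 on *cco-1* RNAi, against 0.19 and 0.27. For 55 of the 56 the SD in both WT groups was larger than in both *lin-40*(*yth27*) groups, which held for 30.1% of all tested genes. With 3 libraries a group, this is a description of these libraries, and no test of a difference in spread was made.

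The low WT libraries were low for more than sperm proteins. Of the 56 genes, 55 were lowest in replicate 1 of both WT groups, against 26.1% of all tested genes, and 55 were over 2-fold below the mean of the other replicates in both, against 9.94%. On the log2 scale replicate 1 lay a median of 2.03 below the mean of replicates 2 and 3 in WT on EV, and 2.76 below it in WT on *cco-1* RNAi. The median of all genes stood at −0.03 and 0.05.

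Oocyte genes moved with them, with 18 of 19 tested (15 by over 2-fold) lowest in replicate 1 of both WT groups. *rme-2*, the yolk receptor of oocytes, was at 18.7, 85.7 and 34.5 CPM in WT on EV and 23.3, 175 and 74.9 CPM in WT on *cco-1* RNAi. The summed level of the 19 oocyte genes ranged from 401 to 1537 CPM on EV and 455 to 3213 CPM on *cco-1* RNAi in WT, and from 1369 to 2129.8 and 1418 to 1515 CPM in the same order in *lin-40*(*yth27*). Their part in the result was not tested.

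Genes that rise towards adulthood moved too, all 9 of 9 being over 2-fold low in both WT replicates numbered 1. *col-19*, an adult cuticle collagen, was at 28.7, 230.05 and 158 CPM in WT on EV and 9.32, 418 and 116 CPM in WT on *cco-1* RNAi. The summed level of these 9, which include the *vit* genes for yolk proteins, ranged from 717 to 4227 CPM on EV and 114 to 4121 CPM on *cco-1* RNAi in WT, and from 6791 to 9512 and 841 to 2659.5 CPM in *lin-40*(*yth27*). Their part was not tested either, and the labels give L4 as the stage of every library.

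The genes of mitotic and early meiotic germ cells were lower there by less. Of 20 tested, 10 were lowest in replicate 1 of both WT groups (against 26.1% of all tested genes), 0 of them by over 2-fold in both, and the median log2 gap to the other replicates was −0.06 on EV and −0.37 on *cco-1* RNAi. Their summed level ranged from 1302 to 1442 CPM on EV and 1050.3 to 1552 CPM on *cco-1* RNAi in WT, and from 1229 to 1491 and 1253 to 1348 CPM in *lin-40*(*yth27*). *pgl-1*, which codes for a germ granule protein, was at 152, 145 and 151 CPM in WT on EV and 112, 172 and 159 CPM in WT on *cco-1* RNAi. Among the 16 genes of the L4 molt and cuticle, 1 was over 2-fold low in both, with summed levels of 9019 to 10762 and 5659 to 7534 CPM in WT and 7928 to 8197 and 6729 to 9025 CPM in *lin-40*(*yth27*), on EV and *cco-1* RNAi. Males make sperm throughout life, and 8 markers of male-specific neurons summed to 1.30 to 2.54 CPM over the 12 libraries. Of these, *cwp-1* and *cwp-3* had 0 counts in every library and *lov-1* reached at most 0.154 CPM. *cwp-4* and *cwp-5* were the highest, with 248 and 137 counts in all. Whether males added to the sperm RNA was not tested.

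**Figure D3:**
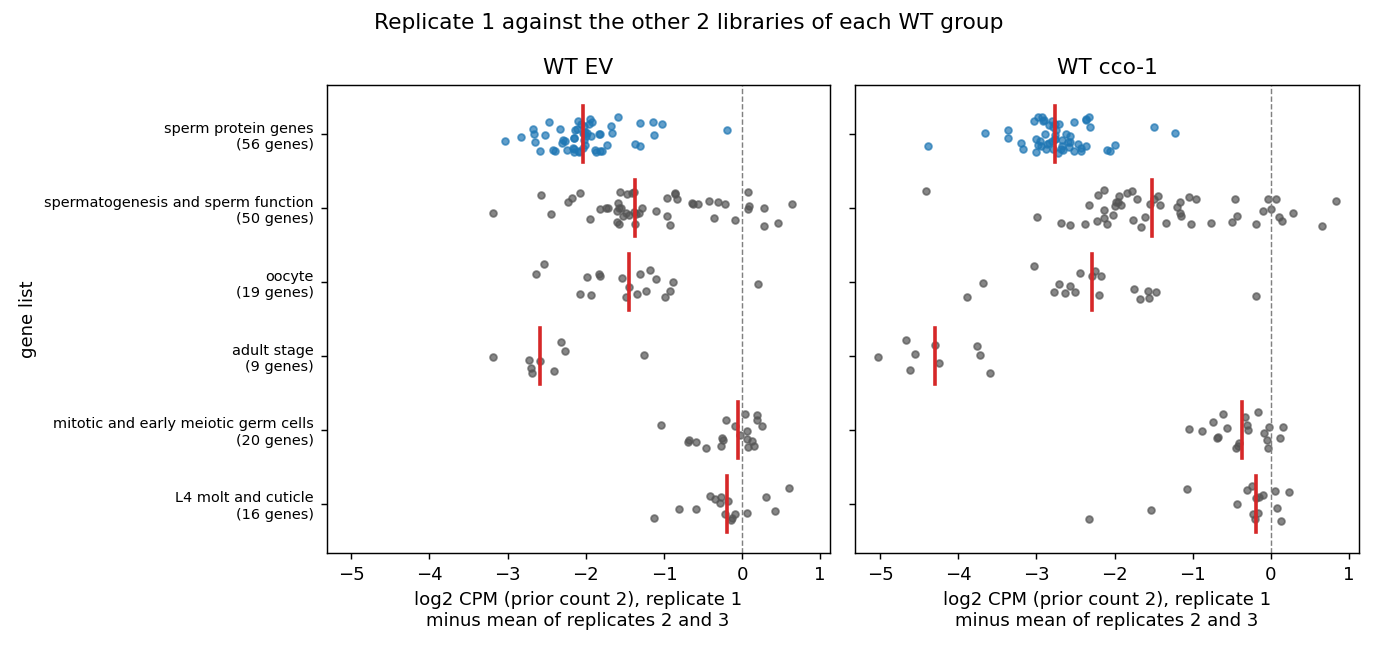
Log2 CPM of replicate 1 minus the mean of replicates 2 and 3, in WT on EV (left) and WT on *cco-1* RNAi (right); each point is a tested gene of the list named on the vertical axis, and the red bar is the median of the list. Sperm protein genes (medians −2.03 and −2.76), oocyte genes (−1.45 and −2.29) and adult-stage genes (−2.59 and −4.29) lie below 0, while germ cell genes (−0.06 and −0.37) and molt genes (−0.20 and −0.19) lie near it.

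Genes of the wider spermatogenesis list did not all move alike. *gsp-3* and *gsp-4*, which code for phosphatases of sperm, followed the sperm proteins, with *gsp-3* at 24.02, 85.0 and 58.0 CPM in WT on EV and 25.1, 121 and 81.9 CPM in WT on *cco-1* RNAi. So did *spe-11*, a factor that sperm bring to the egg, at 1.91, 9.40 and 6.18 CPM and at 3.21, 14.9 and 10.8 CPM, and *spe-9*, a sperm surface protein needed for fertilization, at 0.394, 2.50 and 1.80 CPM and at 1.24, 3.88 and 3.50 CPM. In each of them replicate 1 was the lowest library of its WT group. Of the 50 tested genes of the list, 28 were over 2-fold low in both WT replicates numbered 1.

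Other genes of the list, among them early regulators of sperm formation, moved less, or the other way. *fog-1*, an RNA-binding protein that commits germ cells to sperm, was at 18.2, 12.4 and 10.97 CPM in WT on EV and 19.4, 11.7 and 12.8 CPM in WT on *cco-1* RNAi, so replicate 1 was its highest library in both groups. *fog-3*, which acts beside it, was at 14.4, 9.54 and 14.6 CPM and at 11.2, 3.93 and 10.02 CPM, with its lowest level in the library where the sperm proteins were highest. *spe-44*, a transcription factor of spermatogenesis, was at 16.2, 22.9 and 20.6 CPM and at 12.6, 14.6 and 20.7 CPM, with a smaller gap between replicate 1 and the others. *fer-1*, which is needed for membrane fusion in maturing sperm and is no early regulator, was at 10.1, 14.2 and 15.8 CPM and at 9.68, 17.2 and 20.6 CPM. On the log2 scale, replicate 1 minus the mean of replicates 2 and 3 was −0.64 on EV and −0.44 on *cco-1* RNAi for *fog-2*. It was −0.92 and −1.03 for *fem-3*, and 0.46 and 0.07 for *tra-1*. For *fem-1*, *fem-2*, *tra-2* and *elt-1* it lay between −0.22 and 0.28.

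The regulators were also set against the sperm proteins. There were 29.8 CPM of *fog-1* for every 1000 CPM of the 59 genes in WT EV replicate 1 and 31.9 in WT *cco-1* replicate 1, against 2.14 in WT *cco-1* replicate 2 and 3.84 to 7.499 in the other libraries. The same ratio for *spe-44* was 26.4 and 20.7 in the WT replicates numbered 1, 2.68 in WT *cco-1* replicate 2 and 3.05 to 10.5 elsewhere. For *gsp-3* it stayed between 17.6 and 41.4 in all 12 libraries. These ratios share their denominator, whose own 8.997-fold range enters each of them, and no test was made of them.

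The first comparison asks whether *cco-1* RNAi changed the sperm protein genes in WT. A gene passed where its Benjamini-Hochberg adjusted p was under 0.05. None of the 56 tested genes did (0 higher and 0 lower, edgeR adjusted p of at least 0.440), against 6.25% of all tested genes, 0 had an unadjusted p under 0.05, and DESeq2 also called 0. All 56 fitted changes were nonetheless above 0, with a median log2 change of 0.63 (0.21 to 0.86) beside 0.06 over all genes. The 56 genes moved together between libraries, so their directions are not separate evidence. The groups overlapped for every one of the 56, while 24.3% of all tested genes did not overlap. The lowest p-values belonged to *ssq-3*, at 0.72 ± 0.48 (SE; adjusted p = 0.440, edgeR), and *ssq-4*, at 0.85 ± 0.57 (adjusted p = 0.443).

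In this fit, which does not pair the libraries, the direction turned without replicate 2 of WT on *cco-1* RNAi, to a median of −0.20 with 6 of the tested genes above 0, while the EV library of the same number was kept. It came to 0.20 when replicate 1 of WT on EV was left out, 1.20 when replicate 2 was, and 1.11 without WT *cco-1* replicate 1. For *msp-152*, with a fitted log2 change of 0.57 ± 0.64, the 95% interval ran from −0.83 to 1.97, which takes in no change as well as a rise of more than 2-fold. The full width of that interval had a median of 2.92 over the 56 genes.

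Within the WT replicate numbers, which were taken to pair the libraries, the picture was narrower. The titles do not say that same-numbered libraries were grown together. *cco-1* RNAi against EV gave a ratio of the summed CPM of 0.990 in pair 1, 1.69 in pair 2 and 1.49 in pair 3, and 29, 56 and 55 of the 56 genes were higher on *cco-1* RNAi in these pairs. In all 3 pairs 29 of 56 (51.8%) were higher, against 28.0% of all tested genes. Both libraries of pair 1 thus shared their low level, and the sum did not rise on *cco-1* RNAi there.

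With a replicate block that took the numbers from the sample titles, 1 of the 56 genes rose in WT, *ssq-4* at 0.67 ± 0.16 (SE; edgeR adjusted p = 0.0336), against 3.42% of all tested genes called higher. With a replicate block that took them from the short names, which pairs the WT libraries alike but the *lin-40*(*yth27*) libraries otherwise, 20 of 56 rose, against 7.29% of all tested genes, and 0 fell. These were 14 of 28 *msp*, 2 of 4 *msd*, 2 of 4 *ssq*, 2 of 9 *nspd* and 0 of 11 *ssp* genes, with log2 changes of 0.48 to 0.67 and the lowest adjusted p (0.00799, edgeR) in *msp-79*. Many *msp* copies share reads (90.0% of their values were not whole), and 55 of the 56 genes were highest in the same library. The calls are therefore not separate evidence, and their number cannot be read as that of independent genes. On the 6 WT libraries alone, a blocked fit chosen after the data were seen called 19 of 56 higher, 17 of them shared with the 20, against 8.2% of all tested genes. The median log2 change was 0.48, 0.49 and 0.49 in these 3 fits.

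**Figure D4:**
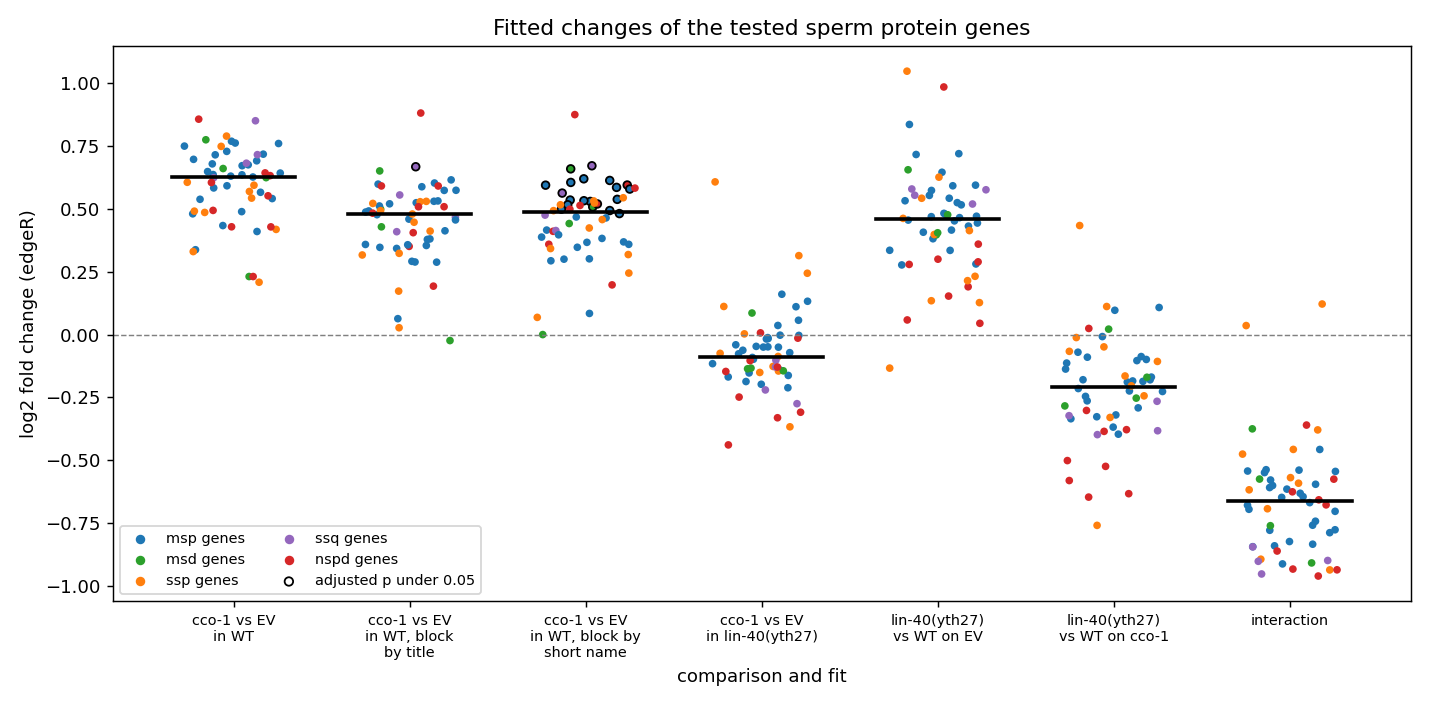
Fitted log2 fold changes of the 56 tested genes in each comparison, and in WT also with a replicate block; each point is a gene in the colour of its family, bars are medians, and black rings mark an adjusted p under 0.05. Rings appear in the blocked WT fits alone (1 and 20 genes), and the medians stand at 0.63, 0.48 and 0.49 in WT, −0.09 in *lin-40*(*yth27*), 0.46 and −0.21 between genotypes and −0.66 for the interaction.

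In *lin-40*(*yth27*), the median fitted change of the sperm protein genes on *cco-1* RNAi lay near 0, with wide intervals. None passed (0 of 56, edgeR adjusted p of at least 0.755, 0 with an unadjusted p under 0.05, and 0 by DESeq2), against 1.16% of all tested genes. The median log2 change was −0.09 (−0.44 to 0.61), with 12 genes above 0 and 44 below, beside −0.03 over all genes. The lowest p-values were those of *ssp-32* at 0.61 ± 0.60 and *nspd-10* at −0.44 ± 0.80 (edgeR adjusted p = 0.755 and 0.883). For 1 of the 56, *ssq-4*, all 3 *cco-1* libraries lay below all 3 EV libraries, against 20.8% of all tested genes whose groups did not overlap in either direction.

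The interval of this change was as wide as in WT, since all 4 groups share an estimate of the spread. The median SD of log2 CPM over these genes was 0.38 and 0.30 in the mutant groups, against 1.23 and 1.66 in WT. The shared estimate thus does not measure the spread of the mutant libraries, or of the WT libraries, by themselves. For *msp-152*, at −0.05 ± 0.64, it ran from −1.44 to 1.35. The median over the genes lay between −0.27 (without *lin-40*(*yth27*) EV replicate 1) and 0.05 (without the mutant's *cco-1* replicate 2) when each library was left out, and it was also above 0 without *lin-40*(*yth27*) EV replicate 2 or 3 (0.03 in each case).

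Between the genotypes on EV, 0 of 56 genes passed (edgeR adjusted p of at least 0.580, 0 with an unadjusted p under 0.05, and 0 by DESeq2), against 0.377% of all tested genes. The fitted changes were above 0 for 55 of the 56, the exception being *ssp-32*, with a median log2 change of 0.46 (−0.13 to 1.05) beside 0.03 over all genes. *ssp-19* had the lowest p, at 1.05 ± 0.81 (edgeR adjusted p = 0.580), from 0.956, 3.98 and 2.63 CPM in WT to 2.95, 6.92 and 5.84 CPM in *lin-40*(*yth27*), followed by *nspd-9* at 0.98 ± 0.79 (adjusted p = 0.590). The groups overlapped for all 56, against 26.6% of all tested genes that did not. The median was 0.05 without WT EV replicate 1 and 1.04 without WT EV replicate 2, and with the replicate block it was 0.70 by title number and −0.07, with 19 of the genes above 0, by short-name number, with 0 genes called by either. By short-name number, WT EV replicate 1 and *lin-40*(*yth27*) EV replicate 2 had no partner. That estimate therefore did not use the low WT library.

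On *cco-1* RNAi the fitted difference between the genotypes pointed the other way, and 0 of 56 genes passed (edgeR adjusted p of at least 0.625, 0 with an unadjusted p under 0.05, and 0 by DESeq2), against 0.626% of all tested genes. The median log2 change was −0.21 (−0.76 to 0.43), with 6 genes above 0 and 50 below. *ssp-9* (WBGene00006040), at −0.76 ± 0.71, and *nspd-6*, at −0.65 ± 0.68, had the lowest p-values (edgeR adjusted p = 0.625 and 0.663). The groups overlapped for all 56, against 17.2% of all tested genes that did not. The median turned to 0.54 without WT *cco-1* replicate 2, fell to −0.69 without WT *cco-1* replicate 1 and came to −0.07 without the mutant's replicate 2. With the replicate block the direction also turned, to a median of 0.22 with 46 genes above 0 and 0 called, by title and by short-name number alike. Both numberings make the same pairs of these libraries, so they are not separate evidence. The deviations of the paired libraries correlated negatively over all genes (−0.376, −0.216 and −0.168).

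The interaction asks whether the change on *cco-1* RNAi differed between the genotypes, and 0 of 56 genes passed (edgeR adjusted p of at least 0.605, 0 with an unadjusted p under 0.05, and 0 by DESeq2), against 0.0% of all tested genes. The median was −0.66 on the log2 scale (−0.96 to 0.12), with 54 of 56 genes below 0, beside −0.04 over all genes. *ssq-3* and *ssq-4* had the lowest p-values, at −0.84 ± 0.67 and −0.95 ± 0.80 (edgeR adjusted p = 0.605 and 0.625). The median rose to 0.10 when WT *cco-1* replicate 2 was left out, and was −1.14 without replicate 1 of that group. Leaving out WT EV replicate 1 or 2 gave −0.24 or −1.23. The 5 comparisons share libraries, so their directions are not separate evidence.

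The 50 tested genes of the spermatogenesis list, none of them a sperm protein gene of the 5 families, gave the same count, with 0 higher and 0 lower in each of the 5 comparisons by edgeR. Their unadjusted p was under 0.05 for 1 gene in WT, 1 in *lin-40*(*yth27*), 2 between genotypes on EV, 6 between genotypes on *cco-1* RNAi and 0 for the interaction. In the same order it was under 0.05 for 3097, 1764, 2223, 2314 and 1688 of all 14867 tested genes, a larger share each time. The median log2 change was 0.30 in WT (42 of 50 above 0), −0.21 in *lin-40*(*yth27*) (13 above 0), 0.10 and −0.34 between the genotypes on EV and *cco-1* RNAi, and −0.50 for the interaction. In WT the fitted changes were 0.08 ± 0.23 (SE) for *fog-1*, −0.61 ± 0.33 for *fog-3*, −0.32 ± 0.28 for *spe-44* and 0.24 ± 0.26 for *fer-1*, and those of *gsp-3*, *gsp-4*, *spe-9* and *spe-11* were 0.45 ± 0.52, 0.41 ± 0.50, 0.87 ± 0.63 and 0.72 ± 0.58, with edgeR adjusted p-values of 0.317 to 0.879 over these 8 genes.

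Beside these, the 19 oocyte genes had 0 calls in each comparison, with a median log2 change of 0.91 in WT, −0.24 in *lin-40*(*yth27*), 1.09 and −0.20 between genotypes on EV and *cco-1* RNAi, and −1.29 for the interaction, each in the direction of the sperm protein genes. Of the 16 molt genes 7 fell in WT on *cco-1* RNAi (edgeR) and 0 rose, with a median of −0.76, while 606 of all 14867 tested genes fell and 323 rose. Of the 20 germ cell genes *glh-1* alone passed in WT, and fell by 0.53 on the log2 scale (edgeR adjusted p = 0.0296). The 9 adult-stage genes had 0 calls, with medians of −0.24 in WT and −2.15 in the mutant for *cco-1* RNAi and 1.61 between genotypes on EV. What part any of these had in the levels of the sperm protein genes was not tested.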

How the data were processed

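RNA from whole L4 animals was selected with oligo(dT) beads for paired-end sequencing. The authors used SeqPrep and Sickle for trimming, TopHat for alignment, with unique matches stated, and RSEM for quantification. Which build was used is not given in the sources used here. Deposited values were taken as RSEM's expected counts without normalization, read from the values, and were rounded to whole numbers for the tests. No column belonged to another sample, and every row named a gene or locus.

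Gene symbols were matched to WormBase IDs, and lengths and positions came from Ensembl release 115 (WBcel235). Genes passing filterByExpr were scaled by TMM and fitted on all 12 libraries by the quasi-likelihood model of edgeR 4.0.16 in R 4.3.3, with Benjamini-Hochberg adjustment over 14867 genes and a threshold of 0.05. Log2 CPM used a prior count of 2, and intervals are at 95%. The fit was tested on simulated data, in which genes were drawn independently and each had the same dispersion in all 4 groups. The sperm protein genes moved together and varied more in WT, so that test does not cover their case. Replicates differed by more than sampling noise (chi-square over its degrees of freedom, 4.24 to 97.5). The intervals rest on an estimate of the spread between libraries that all 4 groups share. Plots were drawn with matplotlib 3.10.9.

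Alternatives were scaling by median of ratios, upper quartile, library totals or TMM without the sperm protein genes, no filter or 10 CPM in 3 libraries, DESeq2 1.42.0, the 6 libraries of each comparison, a replicate block by title or by short-name number, leaving out each library, and a threshold of 0.01. Leaving out both WT replicates numbered 1, and a block on the 6 WT libraries alone, were chosen after the data were seen.

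Whether numbers pair libraries was checked by correlating, across all genes, the deviations of same-numbered libraries from their group means. In WT, EV and *cco-1* libraries correlated at 0.723, 0.588 and 0.288, so the numbers were taken to pair them. In *lin-40*(*yth27*) the values were −0.324, −0.192 and −0.113 by title. Between the genotypes by title, EV libraries gave 0.467, 0.278 and 0.169 and *cco-1* libraries −0.376, −0.216 and −0.168, while short names gave −0.426 and 0.169 for the EV libraries that share a number. Over the tested sperm protein genes alone, the WT EV and *cco-1* libraries correlated at 0.215, 0.351 and −0.031. Libraries of different numbers were not compared, so the check does not settle the pairing.

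Genes were named by rule, as the 3 highest of each family, the called genes of largest change, the 2 lowest p-values where none was called, and 8 spermatogenesis genes; other names were chosen after their values were seen. The members and the lists of 126 marker genes, of which 123 were matched, were chosen with earlier results of these data known.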

Additional observations from a re-analysis of the deposited data

How the results depend on the processing

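The count of sperm protein genes called was 0 in each of the 5 comparisons under every scaling, filter and threshold tried, with DESeq2 and with any library left out, and in the 4 comparisons of groups on their own 6 libraries, a fit not run for the interaction. It moved in WT with the replicate block, to 1 by title number, 20 by short-name number and 19 on the 6 WT libraries alone, and the cause of the difference was not tested. Without both WT replicates numbered 1 it stayed at 0, with medians of 0.69 in WT and −0.69 between genotypes on *cco-1* RNAi. In that fit of 57 tested genes, the unadjusted p (edgeR) was under 0.05 for 11 in WT and 31 between genotypes on *cco-1* RNAi. It was so for 1 in *lin-40*(*yth27*) and 0 between genotypes on EV. The share of all genes in that fit is not given here, so these counts have no background beside them. In the main fit the unadjusted p was under 0.05 for 3097 of all 14867 tested genes in WT. Between genotypes on *cco-1* RNAi it was so for 2314 of them. The lowest edgeR adjusted p in that fit was 0.0736 in WT and 0.0644 between genotypes on *cco-1* RNAi, both above the threshold of 0.05. For the interaction, the lowest adjusted p of a sperm protein gene over all settings, by edgeR or DESeq2, was 0.0511.

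With each library left out, the median log2 change ran from −0.20 to 1.20 in WT, −0.27 to 0.05 in *lin-40*(*yth27*), 0.05 to 1.04 between genotypes on EV, −0.69 to 0.54 between genotypes on *cco-1* RNAi, and −1.23 to 0.10 for the interaction. Across genotypes, the replicate block gave medians of 0.70 by title and −0.07 by short-name number on EV, and 0.22 by both on *cco-1* RNAi. Library totals shifted the median of all genes from 0.06 to 0.19 in WT, −0.03 to −0.18 in *lin-40*(*yth27*), 0.03 to 0.16 on EV, −0.02 to −0.16 on *cco-1* RNAi and −0.04 to −0.31 for the interaction, and the sperm protein genes relative to it stayed at 0.57 in WT and −0.07 in *lin-40*(*yth27*).

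The spread between libraries limits these comparisons. The median coefficient of biological variation was 55.7% over the 56 genes, against 21.2% over all tested genes.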
